A study of Mus musculus with 868 samples.

Results

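The genes described here encode nuclear subunits of the mitochondrial respiratory chain and ATP synthase, measured by 3′ mRNA sequencing in 24 tissues of C57BL/6N mice under 18 treatments. They are the genes whose symbols begin with Nduf and a letter a, b, c, s or v with a digit, with Cox4 to Cox8, with Uqcr or with Atp5, and Sdha to Sdhd, without Cox7a1 and Cox8b. The rule itself uses only names, but it was set with earlier results of these data known. It took 82 of the 24421 genes counted. Of these, 35 belong to complex I, 4 to complex II, 8 to complex III, 16 to complex IV, in which Ndufa4 is placed here, and 15 to complex V. The other 4, Atp5s, Atp5sl, Cox7a2l and Ndufa4l2, carry matching names but are not established core or accessory subunits. All groups are the same strain, and each group is 1 treatment in 1 tissue. The 868 libraries fell into 3 library sets. Set A held APAP (2 hours), Sofosbuvir, 5% sucrose and untreated mice, in 194 libraries. Set B held Alendronate, Risedronate, Asenapine, Lurasidone and Olanzapine, in 242 libraries, and had no control of its own. Set C held Cisplatin, Dox (2 mg per mL), EMPA (oral, 2 weeks), Repatha, Teriparatide, Clozapine, Aripiprazole, Lenalidomide and the vehicle of 0.5% CMC with 0.25% Tween80, in 432 libraries. Drugs were compared only inside a set: APAP and Sofosbuvir against the mean of sucrose and untreated mice, sucrose against untreated mice, each set B drug against the mean of the other 4 drugs, and each set C drug against the vehicle. No other dose, sex, age or tissue pooling is given in the sources used here. Each group had 2 libraries, but 4 were present for Sofosbuvir in Jejunum and 4 for Asenapine in Brain. The labels do not say that the libraries of a group came from separate animals, so the p-values measure the spread between these libraries, which may be technical.

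The respiratory chain sits in the inner mitochondrial membrane. Complex I takes electrons from NADH and complex II, which is also the succinate dehydrogenase of the citric acid cycle, takes them from succinate. Complex III passes them through cytochrome c to complex IV, which reduces oxygen, and complex V uses the proton gradient to make ATP. Several small complex IV subunits have isoforms named for heart, muscle, lung or testis, and the ring of complex V is built from the c subunit, which is the product of the Atp5g genes. Working heart muscle, kidney tubules and brown fat are known for a high content of mitochondria.

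The libraries held between 451154 and 12811780 counts, with a median of 877593. The 48 untreated libraries were the deepest group, with 2875950 to 12811780 counts. Every library detected between 73 and 81 of the 82 genes, and Ndufs5 had no count in any of the 868 libraries, so 81 genes carry the results below. Marker genes ranked highest in the tissue that bears their name for heart, SkMuscle, liver, kidney, pancreas, testis, brain, Jejunum, BM and WAT. Aorta departed from its label: the brown adipocyte markers summed to 10481 CPM there (counts scaled by the library's column sum to a common total), against at most 865 in any other untreated tissue, with 4142 and 3596 for Ucp1, the uncoupling protein of brown fat. The white adipocyte markers summed to 15660 in Aorta and to 40283 in WAT. The smooth muscle markers summed to 2976 in Aorta, below SkMuscle at 6229 and heart at 3516, and were highest in Stomach at 6742. Aorta is therefore described below as the library labelled Aorta, with brown adipocyte genes. In bulk tissue, fewer cells of a type and less RNA per cell cannot be told apart. In GENCODE M21 on mm10, 81 of the 82 genes were found. Of these, 12 overlap another gene on the same strand and 29 overlap one on the other strand, and 4 members have pseudogenes named after them. The strand setting of the counting is not given, so counts of all these genes may be shared or lost.

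Promoter sequences, 250 bases before to 50 bases after the annotated start, were found for 67 of the 82 genes in RefSeq (GRCm38.p6). They were searched on both strands for the letters of NRF1 (GCGC, then A, any base, and GCGC again), ETS (CCGGAAG) and YY1 (AANATGGCG), 3 motifs of factors known to act on nuclear genes for mitochondrial proteins. NRF1 letters were in 17 promoters (25.4%) against 5.19% of 27025 promoters. ETS letters were in 16 (23.9%) against 9.93%, YY1 letters in 11 (16.4%) against 2.76%, and any of the 3 in 38 (56.7%) against 15.9%. By complex, YY1 letters were in 7 of 31 complex I promoters and 3 of 14 complex V promoters, and in no promoter of complexes II, III and IV. At least 1 of the 3 was in 11 of 14 complex V promoters and in 3 of 11 complex IV promoters. A match is a description and not a bound site. The 4 windows below are of genes that the results turn on; capitals mark motif letters. Uqcrc1 (chr9:108936398-108936697, plus strand), a core protein of complex III, was among the genes that changed most in 3 of the drug comparisons below. Cox6a1 (chr5:115348909-115349208, minus strand) is the widespread isoform that is low in striated muscle. Cox6b2 (chr7:4753045-4753344, minus strand) is the testis isoform and holds none of the 3 motifs. Atp5k (chr5:108434350-108434649, minus strand), the e subunit of complex V, had the widest range over tissues of the complex V genes.
Uqcrc1: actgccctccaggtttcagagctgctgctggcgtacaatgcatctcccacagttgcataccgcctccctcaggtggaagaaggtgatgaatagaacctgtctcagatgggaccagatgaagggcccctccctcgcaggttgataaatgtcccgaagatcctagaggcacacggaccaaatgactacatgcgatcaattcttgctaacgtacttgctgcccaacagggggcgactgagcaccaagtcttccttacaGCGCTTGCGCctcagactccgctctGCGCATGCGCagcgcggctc
Cox6a1: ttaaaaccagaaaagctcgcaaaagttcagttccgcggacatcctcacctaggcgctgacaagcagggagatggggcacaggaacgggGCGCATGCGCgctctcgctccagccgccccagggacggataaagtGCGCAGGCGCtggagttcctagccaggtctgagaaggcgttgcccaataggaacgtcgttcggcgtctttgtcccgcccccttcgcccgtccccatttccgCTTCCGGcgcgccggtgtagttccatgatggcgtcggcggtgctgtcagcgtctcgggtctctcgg
Cox6b2: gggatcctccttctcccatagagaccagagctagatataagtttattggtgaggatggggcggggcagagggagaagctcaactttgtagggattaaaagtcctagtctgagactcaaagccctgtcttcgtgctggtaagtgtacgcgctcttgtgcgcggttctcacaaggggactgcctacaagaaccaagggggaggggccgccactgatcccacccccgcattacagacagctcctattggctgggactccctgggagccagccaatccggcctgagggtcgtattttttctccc
Atp5k: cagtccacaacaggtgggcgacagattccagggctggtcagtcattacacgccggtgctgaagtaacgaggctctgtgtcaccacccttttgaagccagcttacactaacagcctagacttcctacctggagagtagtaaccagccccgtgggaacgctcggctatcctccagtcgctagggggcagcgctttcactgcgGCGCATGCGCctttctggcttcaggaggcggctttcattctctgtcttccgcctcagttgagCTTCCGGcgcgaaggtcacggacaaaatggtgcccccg

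Summed over all members, heart had the highest level of respiratory chain transcripts and Pancreas the lowest. The values are CPM from the column sums. Heart had 109689 and 115162, so that 11.2% of all counts came from these genes. The library labelled Aorta had 75930 and 68957, Kidney 54926 and 57191, and SkMuscle 41640 and 39563. Heart was 1.55 times Aorta, and the pairs of these 4 tissues did not overlap. Stomach and Liver came next at 32475 ± 1255 and 32055 ± 83.4 (SD, n = 2 each) and overlapped each other. Below them, Colon averaged 31045, WAT 27773, ThyroidG 27541 and Jejunum 26216, with Jejunum split at 32080 and 20352. In all, 11 of the 23 neighbouring pairs in the order overlapped, most of them in the lower part. The low end held Skull (13211), Brain (11806), Spleen (11782) and Pancreas (5643 and 5276). Pancreas was 20.6 times below heart, and its acinar markers took 359631 CPM. With TMM-scaled library sizes, which compensate for such dominant genes, heart remained highest with 129149, SkMuscle came next with 71195, Pancreas had rank 7 with 29965, and Spleen was lowest at 9266. The place of Pancreas in the order depended on the scaling.

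**Figure D1:**
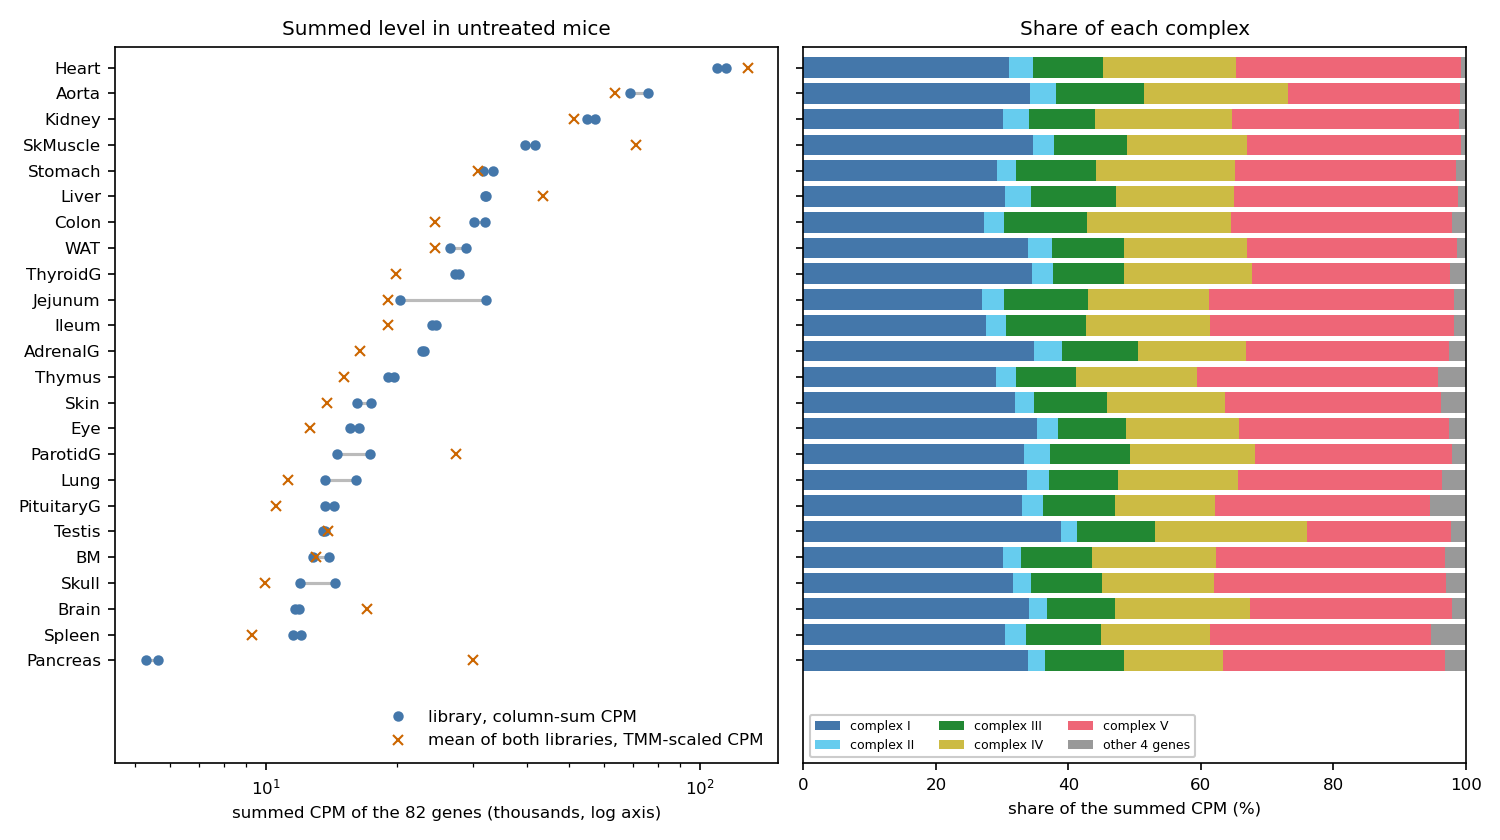
Left, summed CPM of the 82 members in untreated mice on a log axis, by tissue, with a blue point for each of 2 libraries and a cross for the mean with TMM-scaled library sizes; right, the share of each complex in the column-sum total, in percent. Heart is highest on both scales, Pancreas moves from the bottom at 5643 and 5276 to 29965 with TMM, and complex V takes its smallest share in Testis, at 21.8%.

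The complexes did not take equal shares of that sum in every tissue. Complex V made up 34.0% of it in heart, 25.9% in the library labelled Aorta and 21.8% in Testis, against 37.0% in Jejunum and 36.8% in Ileum. Complex I made up 31.0% in heart and 38.8% in Testis. The ratio of the complex V sum to the complex I sum was 0.56 in Testis, 0.76 in Aorta, 1.1 in heart and 1.37 in Jejunum. Testis and Aorta were thus the 2 tissues with the lowest ratios. These are shares of summed reads over different genes and say nothing of the stoichiometry of the proteins.

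Single members followed the sum closely in most cases. Across the 24 tissue means of log2(CPM + 1), the correlation of a member with the summed other members had a median of 0.936, and 56 of 81 members were above 0.9. The tissue means share libraries and column totals, so this is a description. Complex I members all lay above 0.79, with a median of 0.938, and complex III had a median of 0.955. Complex IV had a median of 0.859 and held 7 of the 10 members below 0.5. These were the isoforms Cox8c (-0.17), Cox7b2 (-0.15), Cox6b2 (-0.12), Cox4i2 (0.10), Cox6a1 (0.40), Cox6a2 (0.44) and Cox8a (0.49). Heart was the highest tissue for 66 members, Aorta for 7 and Testis for 4, and Pancreas was the lowest for 58 and Testis for 10.

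**Figure D2:**
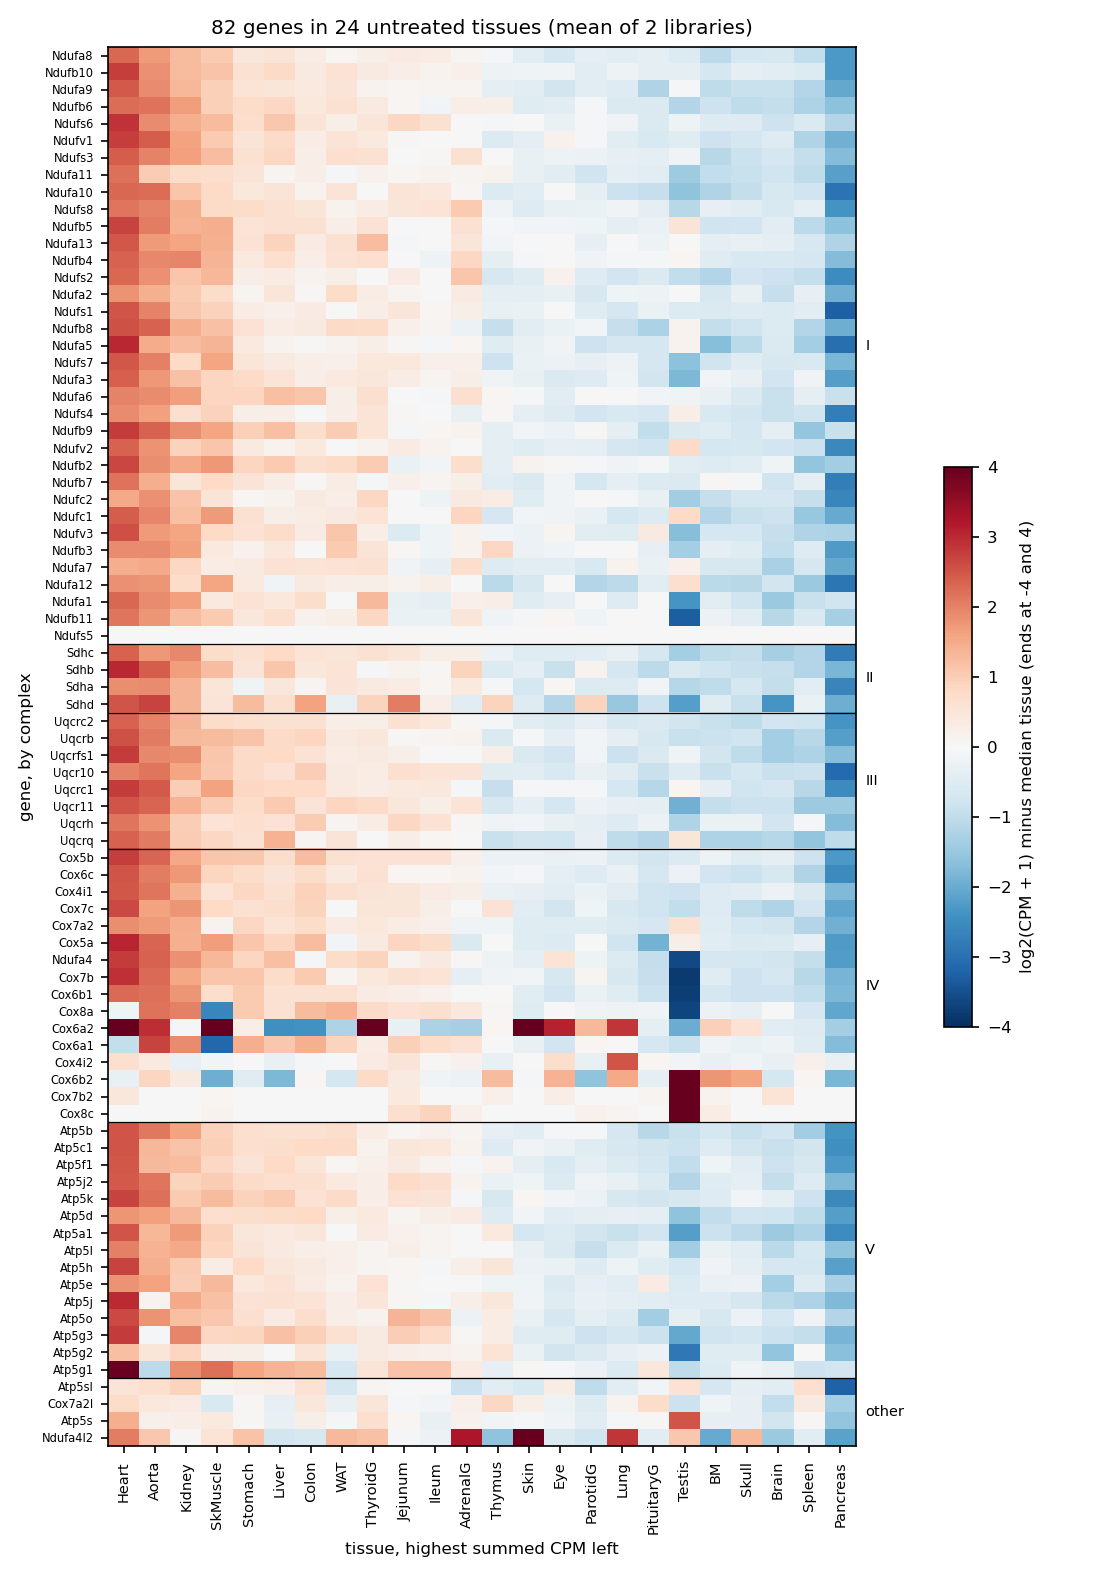
Each member (down the page, by complex) in each untreated tissue (across the page, highest summed CPM left), as the mean log2(CPM + 1) of 2 libraries minus that gene's median tissue, with colours ending at -4 and 4. Most genes are red in heart and blue in Pancreas, several complex IV isoforms are dark red in single tissues, and the Ndufs5 row is 0 throughout.

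Members of complex I include the iron-sulphur and flavin subunits that carry electrons and many accessory subunits. Ndufb8, an accessory subunit that had the highest mean of complex I, was at 4633 and 4597 CPM in heart and at 197 and 217 in Pancreas. Ndufa5, another accessory subunit, had the widest range of the complex, with 2888 and 3044 in heart and 46.8 and 41.6 in Pancreas. Sdhb, the iron-sulphur subunit of complex II, was at 1922 and 2049 in heart and 1373 and 1257 in Aorta. Each of these pairs of libraries stood apart from the others it is set against. In complex III, Uqcrh, the hinge protein, averaged 2602 in heart, and Uqcrc1 was at 1076 and 1110 in heart and 28.7 and 23.3 in Pancreas. In complex V, Atp5k was at 2918 and 2919 in heart and 67.9 and 78.5 in Pancreas. All of these members had their highest mean in heart.

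Each untreated tissue was then tested against the mean of the other 23, with TMM scaling. A call is an adjusted p under 0.05 over 18298 genes. In heart 77 of 81 members rose and 1 fell, where 23.9% of all genes rose and 19.6% fell. The median log2 fold change of the members was 2.69, against -0.33 over all genes. All 34 tested complex I members, all 4 of complex II, all 8 of complex III and all 15 of complex V rose in heart, with medians of 2.64, 2.79, 2.73 and 2.79. Atp5g1, one of the 3 genes for the c subunit, rose by 3.93 ± 0.07 (log2 fold change ± SE, adjusted p = 1.64e-33). Ndufa5 rose by 3.48 ± 0.09, and Atp5j, the F6 subunit of complex V, by 3.27 ± 0.11. The 1 member that fell was Cox6a1, by 0.89 on the log2 scale (adjusted p = 2.31e-07). Cox8a did not pass the test, at 0.03 ± 0.12.

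In SkMuscle 74 of 81 members rose and 3 fell, where 27.4% of all genes rose and 21.9% fell. The members' median was 1.77, against -0.30 over all genes. Beside Atp5g1 at 2.74 ± 0.08, the accessory complex I subunits Ndufa12 and Ndufc1 rose by 2.66 ± 0.08 and 2.54 ± 0.07. The 3 that fell were the complex IV isoforms Cox6a1 (-2.60 ± 0.15), Cox8a (-1.89 ± 0.14) and Cox6b2, which had 0 and 1 counts in SkMuscle. Compared with SkMuscle directly, heart had 65 of 81 members higher and 0 lower, where 17.2% of all genes were higher and 17.5% lower. The median log2 difference was 0.88, against 0.00 over all genes. By complex, 28 of 34 were higher in complex I, 4 of 4 in II, 7 of 8 in III, 12 of 16 in IV and 12 of 15 in V. Cox8a differed most among the abundant members, by 1.84 ± 0.17, then Atp5h, the d subunit of complex V, by 1.80 ± 0.16. The values for Cox6a2 (0.76 ± 0.37, adjusted p = 0.116) and Ndufa12 (-0.34 ± 0.15, adjusted p = 0.0784) did not pass.

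In the library labelled Aorta 75 members rose and 1 fell, where 23.2% of all genes rose and 15.3% fell, with a median of 1.70. All 34 complex I members and all 4 of complex II rose. Cox6a1 rose by 2.52 ± 0.08 and Sdhb by 2.24 ± 0.10. The member that fell was Atp5g1, at -1.70 ± 0.13 (adjusted p = 7.33e-14), and Atp5g3, another c subunit gene, was at -0.30 ± 0.15 (adjusted p = 0.131). The brown adipocyte markers were high in both Aorta libraries, and their part in these values was not tested. Kidney had 73 members higher and 0 lower (27.1% and 18.1% of all genes) with a median of 1.14, led by Cox8a at 1.98 ± 0.09 and Sdhc, a membrane anchor of complex II, at 1.89 ± 0.11. Liver had 73 higher and 2 lower (25.5% and 22.2%) with a median of 1.0, led by Uqcrq, a small subunit of complex III, at 1.96 ± 0.09. Stomach had 65 higher and 0 lower (26.9% and 11.3%) with a median of 0.50.

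In the next tissues, with TMM scaling, more members were lower than higher. Skull had 2 higher and 73 lower (26.1% and 16.9% of all genes), Lung 4 and 73 (28.6% and 14.4%), Skin 2 and 72 (27.5% and 15.2%), Spleen 1 and 71 (28% and 18.3%), PituitaryG 1 and 70 (29.2% and 19.4%), Eye 3 and 68 (34.4% and 21.5%) and BM 1 and 67 (28% and 23.4%). Spleen had the lowest median, at -1.31, with Ndufb2 and Ndufb9, accessory subunits of complex I, at -2.37 ± 0.16 and -2.26 ± 0.17. Thymus had 4 higher and 56 lower (30.8% and 20.4%), AdrenalG 4 and 44 (21.3% and 14.6%) and Brain 2 and 39 (28.8% and 23%). The remaining tissues were divided or depended on the scaling. WAT had 24 higher and 7 lower (21.7% and 14%), Colon 21 and 6 (25.5% and 13.8%), Jejunum 7 and 30 (27.3% and 14%), Ileum 6 and 30 (25.8% and 12.6%) and ThyroidG 7 and 18 (23.1% and 12.8%). ParotidG had 52 higher and 1 lower (24.7% and 12.5%) and Pancreas 40 higher and 6 lower (16.3% and 13.3%). With column sums in place of TMM, ParotidG had 0 higher and 53 lower and Pancreas 0 higher and 78 lower, with the median of all genes itself moved to -0.81 and -2.58. Column sums also gave 74 lower in Brain, 37 lower in Thymus, 54 higher in Colon and 40 higher in WAT. The majority also turned in AdrenalG, Jejunum, Ileum and ThyroidG, where 24, 38, 22 and 48 members were then higher. The median of all genes moved up there too, to 0.35, 0.54, 0.38 and 0.43. It lay above the members' medians of 0.14, 0.26, 0.14 and 0.36. In Brain the median of all genes was -0.65, against -0.88 for the members. No share of all genes called is given for column sums.

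The isoform pairs showed the sharpest differences between tissues. Cox6a2 (chr7:128205435-128206387, minus strand, mm10), the heart and muscle isoform of complex IV subunit VIa, was at 3946 and 4135 CPM in heart and 1541 and 1586 in SkMuscle, against 0.324 and 0.229 in Liver. ThyroidG, whose libraries also held 16770 CPM of the skeletal muscle fibre markers, was at 224 and 205. Its partner Cox6a1 (chr5:115345642-115348981, minus strand) was at 1316 and 1216 in Aorta and 682 and 776 in Kidney, against 102 and 101 in heart and 23.6 and 18.9 in SkMuscle. SkMuscle was the tissue with the second highest mean of Cox6a2 and the lowest mean of Cox6a1. Cox8a (chr19:7215153-7217616, minus strand), the widespread isoform of subunit VIII, was at 1578 and 1531 in Aorta and 302 and 314 in heart, and at 57.4 and 55.1 in SkMuscle. The subunit VIII and VIIa isoforms of muscle, Cox8b and Cox7a1, are not among the members. Cox7a1 was at 3511 and 3871 in heart, and Cox8b at 1351 and 1317 in Aorta and 737 and 813 in heart.

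The 3 genes for the c subunit of complex V also differed between tissues. Atp5g1 (chr11:96068852-96075670, minus strand) was at 1596 and 1686 in heart, 504 and 470 in SkMuscle and 378 and 389 in Kidney, and was lowest in Aorta at 51.2 and 50.4. Atp5g3 was at 6892 and 7277 in heart and 3973 and 3913 in Kidney, against 932 and 1008 in Aorta. Atp5g2 had a flatter profile, with a mean of 426 in heart and 24.6 in Testis. In Aorta Atp5g2 was at 256 and 262 and rose by 0.50 ± 0.09 (adjusted p = 3.13e-05), so the 3 c subunit genes did not go one way there. Cox4i2, the lung isoform of subunit IV, was at 4.98 and 7.10 in Lung and at most 1.26 in a library of any other tissue. Ndufa4l2 (chr10:127514967-127517154, plus strand), a paralog of Ndufa4, was at 87.1 and 90.9 in Skin, 42.1 and 39.9 in AdrenalG and 27.8 and 35.3 in Lung, and at 0 in both Pancreas libraries.

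**Figure D3:**
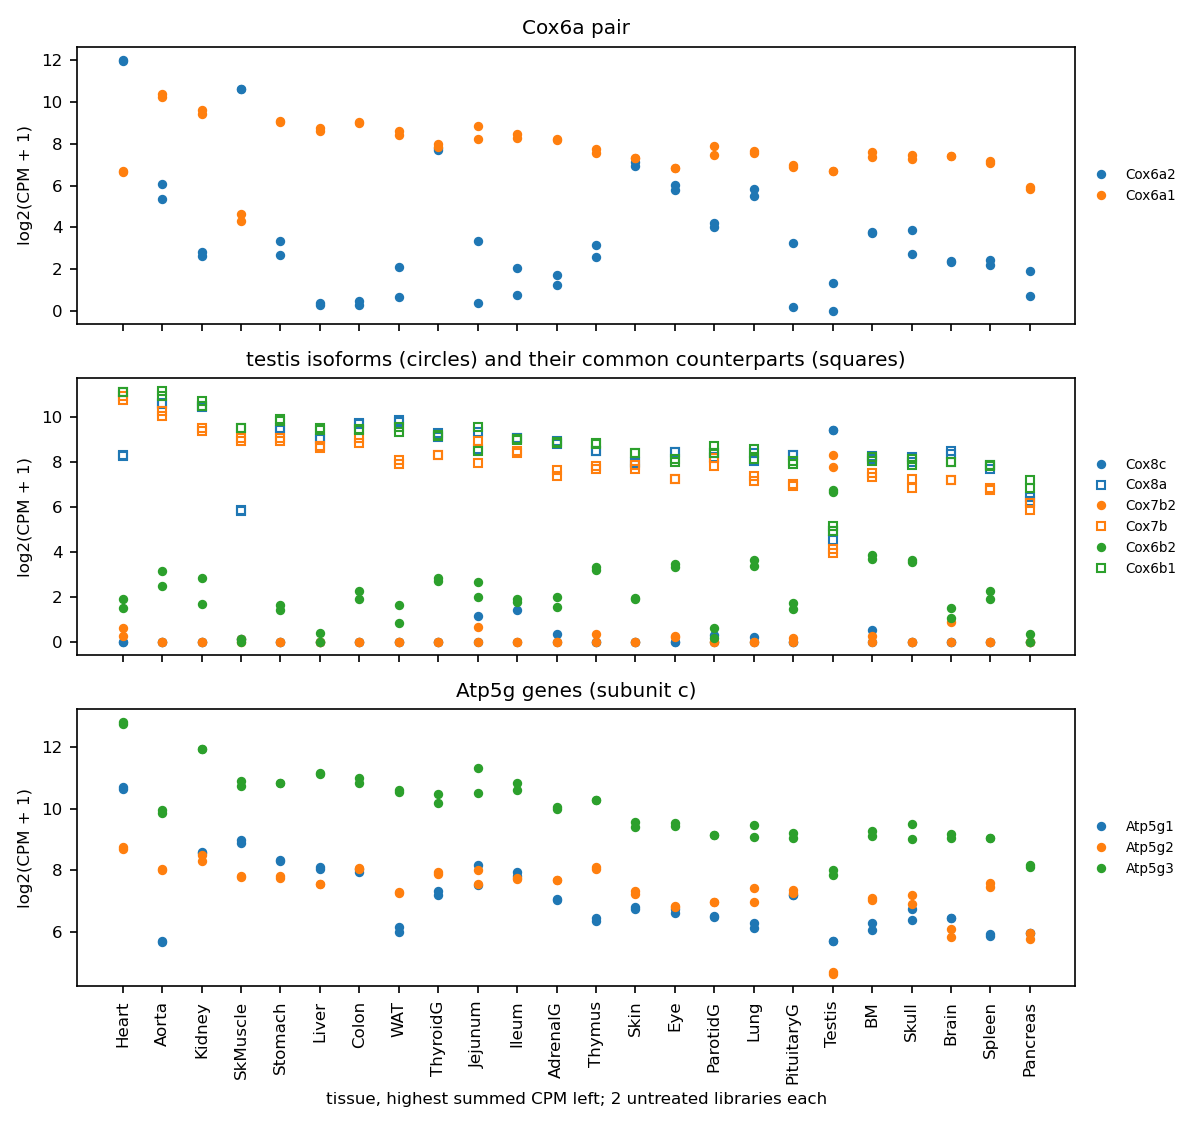
Untreated log2(CPM + 1) of isoform genes by tissue, with a point for each of 2 libraries: the Cox6a pair (top), testis isoforms as circles with their common counterparts as squares (middle), and the 3 c subunit genes (bottom). Cox6a2 lies above Cox6a1 in heart and SkMuscle, and each testis isoform lies above its counterpart in Testis.

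The testis isoforms of complex IV had their highest level in Testis, and their widespread partners had their lowest level there. Cox8c (chr12:102899316-102900526, plus strand) was at 687 and 681 in Testis and at most 1.74 in a library elsewhere, while Cox8a was at 22.3 and 29.5. Cox7b2 (chr5:71442824-71548205, minus strand) was at 221 and 314 in Testis and at most 0.902 elsewhere, while its partner Cox7b (chrX:106015700-106022450, plus strand) was at 14.5 and 16.8. Cox6b2 (chr7:4751792-4753094, minus strand) was at 109 and 99.4 in Testis, followed by BM at 13.9 and 12.0, while Cox6b1 was at 30.1 and 35.1. Against the other tissues, 14 members were higher and 57 lower in Testis, where 40.2% of all genes were higher and 28.6% lower. All 15 complex V members and all 4 of complex II fell. Cox7b fell by 4.10 on the log2 scale (SE 0.21, adjusted p = 3.45e-19), and Cox6b1 and Ndufa4, both complex IV subunits, were at -3.89 and -3.94. Cox6b2 rose by 5.51 ± 0.15 (adjusted p = 8e-28), and Atp5s by 3.02 ± 0.23. The 3 members on the X chromosome, Cox7b, Ndufb11 and Ndufa1, all fell, with a median of -3.56. The 78 others had 14 higher and 54 lower, with a median of -0.74.

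Other mitochondrial gene lists went along to different degrees. Over the 24 tissue means, the sum of 13 citric acid cycle genes correlated with the sum of the members at 0.972, Cycs, which encodes somatic cytochrome c, at 0.963, 18 fatty acid oxidation genes at 0.914, 47 assembly factors at 0.885 and 77 mitochondrial ribosome genes at 0.876. Among regulators, Esrra, a nuclear receptor, was at 0.835 and Ppargc1a, a coactivator, at 0.689, against 0.241 for Tfam and -0.07 for Nrf1. In heart, 13 of 13 citric acid cycle genes rose (median 2.74), 16 of 17 fatty acid oxidation genes (3.17), 74 of 77 mitochondrial ribosome genes (1.17) and 41 of 44 assembly factors (1.09). Between heart and SkMuscle, 17 of 17 fatty acid oxidation genes were higher in heart (median 1.81), but 21 of 77 mitochondrial ribosome genes were higher and 6 lower (median 0.16). In Testis, 2 fatty acid oxidation genes rose and 14 of 17 fell, with a median of -2.09. Of 20 listed subunits outside the naming rule, 7 were in the files; the mitochondrially encoded subunits were not analysed here.

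Summed over all drugs and tissues, the members fell more often than they rose, with most falls under APAP, Olanzapine and Cisplatin. Asenapine, Lurasidone, Risedronate and Aripiprazole had more rises than falls. Over 360 pairs of a drug and a tissue, 27315 tests of members gave 532 rises (1.95%, where 1.42% of all gene tests rose) and 1173 falls (4.29%, where 1.32% fell). No member was called in 205 pairs, and 10 or more were called in 56. The most frequent calls were falls of Uqcr11, a small complex III subunit (41 pairs, and 14 rises), Atp5d, the delta subunit of complex V (38 pairs, and 19 rises), and Ndufa11, an accessory complex I subunit (32 pairs, and 13 rises). Cox4i1, the widespread isoform of complex IV subunit IV, had the most rises, with 28 beside 20 falls. Drugs of a set share their reference libraries, so their values are given side by side and not as independent.

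Summed over tissues, APAP had 410 falls and 24 rises in 1821 member tests, where 5.12% of all genes fell and 4.83% rose. Against the mean of sucrose and untreated mice, the falls lay in 22 of 24 tissues. Ndufa11 fell in 16 tissues, Uqcr11 in 14, Atp5d in 13, Cox8a in 12 and Ndufs8, an iron-sulphur subunit of complex I, in 11. Sucrose, one part of the reference, itself had 263 falls and 15 rises against untreated mice (3.53% and 2.76% of all genes). The untreated libraries were also deeper, with a median of 4422231 counts against 855682 over all other treatments. Sucrose and depth can therefore not be told apart in that comparison. With sucrose alone as the reference, APAP had 149 falls and 10 rises. Most of these falls lay in Thymus (54, where 10.4% of all genes fell), SkMuscle (37, 11.3%) and ParotidG (25, 2.8%). Stomach came next with 7 (1.88%). With that reference Ndufa11 fell in 9 tissues, Ndufs8 in 4, Cox8a in 3, Uqcr11 in 2 and Atp5d in 2. Sofosbuvir had 113 falls and 6 rises (1.08% and 1.19% of all genes), with 26 falls and 1 rise against sucrose alone and 75 falls with column sums in place of TMM.

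In set C, Cisplatin had 220 falls and 63 rises (5.53% and 5.6% of all genes), Repatha 65 and 2 (0.476% and 0.509%), Dox 19 and 27 (0.528% and 0.466%), Aripiprazole 3 and 25 (0.535% and 0.92%), Teriparatide 25 and 1 (0.302% and 0.349%), Clozapine 17 and 2 (0.303% and 0.373%) and EMPA 12 and 4 (0.388% and 0.326%). With the mean of the other groups of set C in place of the vehicle, Cisplatin had 347 falls and 134 rises, and the balance of the low counts changed: EMPA then had 7 falls and 56 rises, Clozapine 8 and 15, and Teriparatide 13 and 12. DESeq2 gave EMPA 13 falls and 21 rises, and column sums gave Dox 16 falls and 10 rises, so no direction is given for these 4 drugs. Lenalidomide had no call by edgeR (0.0656% and 0.0523% of all genes), with 184 of 1821 member tests at an unadjusted p under 0.05, and DESeq2 called 17 rises. No share of all genes is given for counts at an unadjusted p, by DESeq2, with column sums or with another reference, apart from single tissues of set A against sucrose alone. In set B, where a rise in 1 drug is part of the reference of the other 4, Olanzapine had 242 falls and 2 rises (1.3% and 1.96%), Asenapine 5 and 248 (2.29% and 2.38%), Lurasidone 20 and 90 (0.531% and 1.1%), Risedronate 5 and 34 (1% and 0.915%) and Alendronate 17 and 4 (0.298% and 0.406%). Most Asenapine libraries carry replicate numbers 3 and 4, and all libraries of the other set B drugs carry 1 and 2; what the numbers mark is not given in the sources used here. Olanzapine and Asenapine stood at opposite ends of the set, and which of them moved cannot be told apart without a control in that set.

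**Figure D4:**
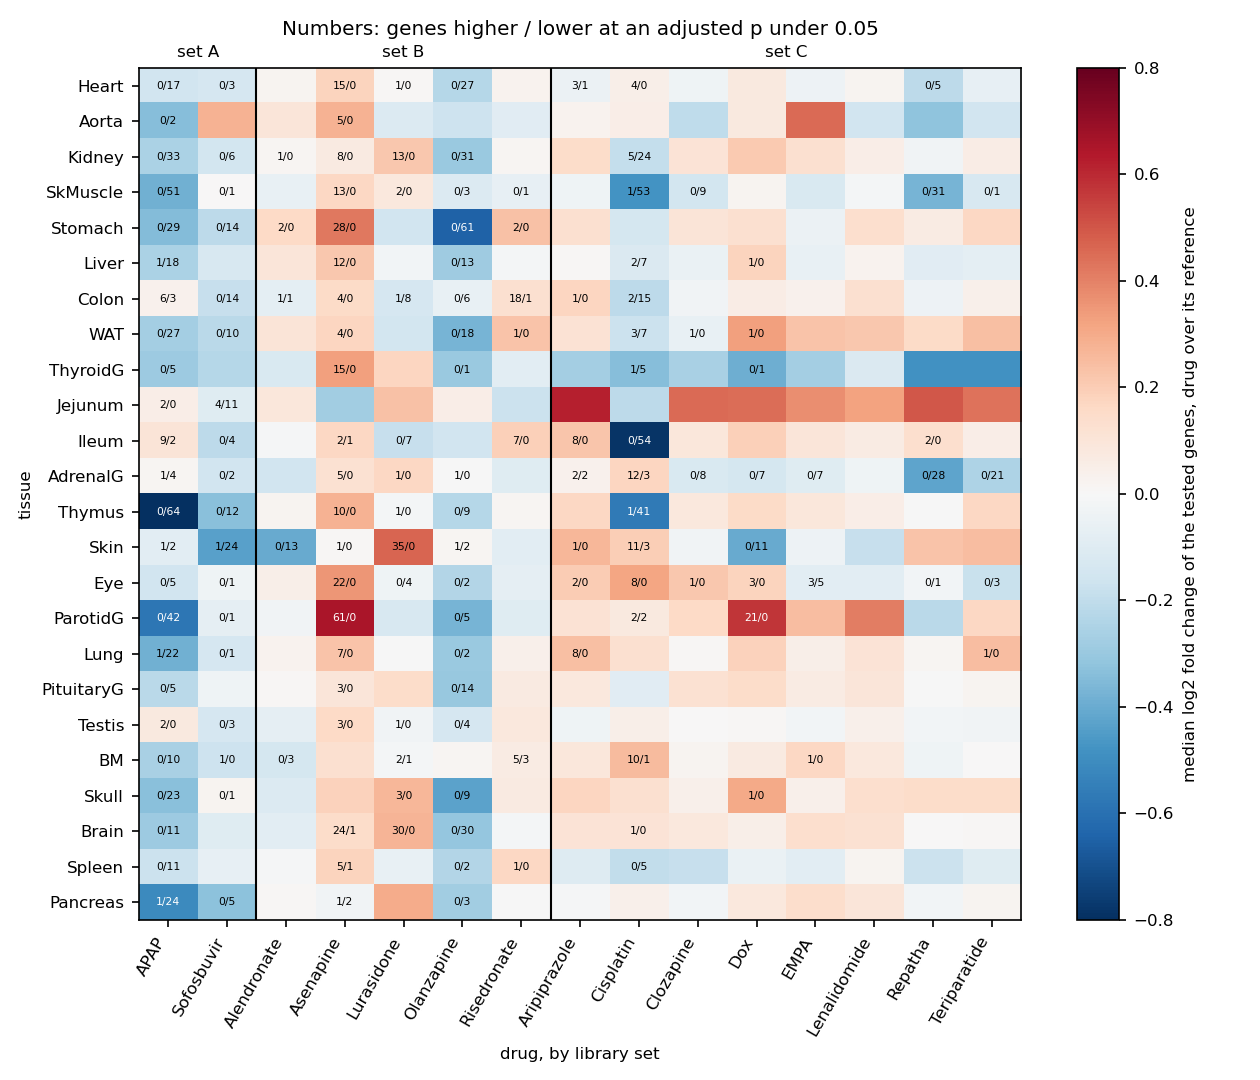
Drugs of the 3 library sets across the page and tissues down the page, coloured by the median log2 fold change of the tested members, drug over its reference (colours end at -0.8 and 0.8); numbers in a cell are members higher and lower at an adjusted p under 0.05, and cells without numbers have no call. APAP in Thymus (0 higher, 64 lower), Olanzapine in Stomach (0 and 61) and Asenapine in ParotidG (61 and 0) hold the most calls; drugs of set C share the vehicle libraries, and set B drugs are part of each other's reference.

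The 8 pairs with the most calls follow; they were picked for those counts. APAP in Thymus came first: 64 of 75 tested members fell and 0 rose, where 15.4% of all genes fell and 10% rose. The summed level was 12525 and 10820 CPM under APAP, against 18954 and 16109 under sucrose and 19129 and 19720 in untreated mice. The groups did not overlap. The median log2 fold change was -0.85, against -0.0033 over all genes. Falls were made by 28 of 34 complex I members, 3 of 4 of complex II, 6 of 8 of complex III, 11 of 12 of complex IV and 15 of 15 of complex V. Atp5g1 was at 50.2 and 26.6 under APAP and between 80.7 and 91.0 in the 4 reference libraries, a log2 fold change of -1.40 ± 0.20 (adjusted p = 3.9e-07). Ndufb2 was at 50.2 and 44.4 under APAP and between 102 and 112 in the reference (-1.39 ± 0.22). Cox7b was at 108 and 84.4 under APAP and between 172 and 238 in the reference (-1.36 ± 0.19). Uqcrh did not pass the test, at -0.13 ± 0.11. Cycs fell by 1.62 on the log2 scale, 7 of 13 citric acid cycle genes and 28 of 76 mitochondrial ribosome genes fell, and 2 fatty acid oxidation genes rose and 1 fell of 17. The cell division markers summed to 320 and 329 CPM under APAP against 1767 to 1950 in the reference, and the thymocyte markers to 3393 and 3184 against 2367 to 3582. The part of cell division in the fall of the members was not tested.

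Asenapine in ParotidG gave the largest rise. Of 75 tested members 61 rose and 0 fell, where 5.2% of all genes rose and 3.75% fell. The summed level was 14795 and 15114 under Asenapine, against 7231, 8370 and 8762 as the lowest, median and highest of 8 libraries of the other 4 drugs. The median log2 fold change was 0.65, against 0.03 over all genes. Rises were made by 30 of 34 complex I members, 3 of 4 of II, 6 of 8 of III, 11 of 12 of IV and 11 of 15 of V. Uqcrc1 was at 91.1 and 97.5 under Asenapine, against a range of 23.8 to 54.1 with a median of 37.3 (1.11 ± 0.18, adjusted p = 3.9e-05). Ndufs3, a core subunit of complex I, was at 94.8 and 78.6, against 24.9 to 45.0 with a median of 37.6 (1.06 ± 0.17). Cox5a, a complex IV subunit, was at 292 and 298, against 103 to 147 with a median of 127 (1.04 ± 0.15). Atp5g1 had overlapping groups and was at -0.18 ± 0.15. Along with the members, 12 of 17 fatty acid oxidation genes and 10 of 13 citric acid cycle genes rose, and 5 of 76 mitochondrial ribosome genes. The brown adipocyte markers summed to 1227 and 1300 under Asenapine against 305 to 673, and the parotid acinar markers to 428988 and 445714 against 245636 to 334070; their part was not tested. Without Asenapine replicate 3 or replicate 4, 37 and 28 members rose.

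Olanzapine in Stomach had 61 of 75 members lower and 0 higher, where 6.92% of all genes fell and 7.69% rose. The summed level was 18255 and 12571 under Olanzapine, against 18398, 26348 and 28660 as the lowest, median and highest of 8 libraries of the other drugs. The 2 Olanzapine libraries lay below all 8, the higher one by little. All 8 complex III members fell, with 25 of 34 of complex I, 2 of 4 of II, 11 of 12 of IV and 14 of 15 of V. Uqcrfs1, the Rieske iron-sulphur protein of complex III, was at 114 and 92.0, against 141 to 338 with a median of 290 (-1.26 ± 0.16). Ndufb3, an accessory complex I subunit, was at 146 and 121, against 217 to 396 with a median of 359 (-1.30 ± 0.18, adjusted p = 1.2e-05). Cox6b1 was at 338 and 191, against 413 to 702 with a median of 624 (-1.12 ± 0.15). The parietal cell markers summed to 5646 and 1755 under Olanzapine against 4369 to 8854, and the smooth muscle markers to 6920 and 13778 against 4153 to 10370. Without Olanzapine replicate 2, the library with the lower parietal sum, 7 members fell. The part of the cell makeup in the full count was not tested.

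Cisplatin in Ileum had 54 of 74 members lower and 0 higher, where 14.5% of all genes fell and 14.7% rose. The summed level was 12766 and 12060 under Cisplatin, against 18655 and 21154 under vehicle, with no overlap. All 4 complex II members fell, with 21 of 34 of I, 6 of 8 of III, 10 of 11 of IV and 13 of 15 of V. Uqcrc1 was at 50.8 and 45.6 under Cisplatin and 118 and 141 under vehicle (-1.50 ± 0.26, adjusted p = 4.01e-05). Atp5g1 was at 122 and 84.1 under Cisplatin and 255 and 266 under vehicle (-1.43 ± 0.20). Ndufb3 (-0.06 ± 0.20) and Cox7a2l (-0.02 ± 0.16) did not pass. Of the other lists, 12 of 17 fatty acid oxidation genes and 7 of 13 citric acid cycle genes fell. The cell division markers summed to 314 and 244 under Cisplatin against 870 and 1144 under vehicle, and the enterocyte markers to 2044 and 2016 against 977 and 1333; their part was not tested. Fabp6, an ileal bile acid binding protein, was at 16.3 and 15.7 under Cisplatin and at 5351 and 1.75 under vehicle, where 3 of the 18 set C Ileum libraries were under 100 and the median was 5311. Both Cisplatin libraries were low in Fabp6, so a fit without the vehicle library at 1.75 cannot check this difference. Its part in the falls was not tested.

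In SkMuscle, members fell under both Cisplatin and APAP. Under Cisplatin 53 of 76 fell and 1 rose, where 17.2% of all genes fell and 19% rose, with sums of 35883 and 30444 under Cisplatin against 40815 and 40691 under vehicle. Ndufb7, an accessory complex I subunit, was at 75.4 and 67.1 under Cisplatin and 130 and 150 under vehicle (-1.07 ± 0.18). Ndufc2, another, was at 211 and 161 under Cisplatin and 326 and 360 under vehicle (-0.97 ± 0.13). The rise was Cox8a, at 115 and 166 under Cisplatin and 55.5 and 65.9 under vehicle (1.13 ± 0.23, adjusted p = 0.000186). Cox6a2 did not pass, at -0.01 ± 0.11. The fibre markers summed to 101952 and 111535 under Cisplatin against 142292 and 142560 under vehicle; their part was not tested. Of 17 fatty acid oxidation genes, 4 rose and 0 fell. Under APAP 51 of 76 fell and 0 rose, where 15.5% of all genes fell and 12.6% rose, with sums of 38496 and 32068 under APAP against 39563 to 41640 in 4 libraries. Uqcrc1 was at 242 and 244 under APAP and between 395 and 503 in those 4 libraries (-1.06 ± 0.11), and Ndufb7 at 205 and 161 and between 332 and 362 (-1.07 ± 0.13, adjusted p = 1.53e-07). The mitochondrial ribosome genes fell in 32 of 76 cases. The fibre markers summed to 150680 and 143071 under APAP against 162018 to 188921, without overlap. Smooth muscle markers summed to 2253 and 2224 under APAP against 4272 to 6548. Untreated SkMuscle had the second highest sum of that list, at 6229, so it may not single out smooth muscle cells there. White adipocyte markers summed to 290 and 1633 under APAP against 242 to 381. The part of these marker lists was not tested. Without APAP replicate 2, the lower library, 21 members fell, with sucrose alone as the reference 37 fell, and with column sums 31 fell.

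APAP in ParotidG and Cisplatin in Thymus completed the 8 pairs with the most calls. Under APAP in ParotidG 42 of 75 members fell and 0 rose, where 3% of all genes fell and 3.69% rose, with sums of 9661 and 8862 under APAP against 22656 and 16505 under sucrose and 14572 and 17380 in untreated mice. Cox7c, a complex IV subunit, was at 111 and 89.7 under APAP and between 230 and 316 in the reference (-1.10 ± 0.16). Ndufv3 was at 26.8 and 22.4 under APAP and between 62.9 and 81.4 in the reference (-1.17 ± 0.20, adjusted p = 0.000174). These groups did not overlap. Without APAP replicate 1 or replicate 2, 15 and 6 members fell, with sucrose alone 25 fell, and with column sums 71 fell. The smooth muscle markers summed to 90.1 and 96.3 under APAP against 145 to 187, without overlap. The brown adipocyte markers summed to 711 and 759 against 640 to 2477, and the parotid acinar markers to 208443 and 173866 against 205334 to 260213, both with overlap; their part was not tested. Under Cisplatin in Thymus 41 of 75 fell and 1 rose, where 21.8% of all genes fell and 22.1% rose, with sums of 8501 and 10087 under Cisplatin against 12362 and 11283 under vehicle. Atp5g1 was at 41.2 and 37.0 under Cisplatin and 91.6 and 118 under vehicle (-1.57 ± 0.20, adjusted p = 2.37e-08), and 12 of 15 complex V members fell. Ndufa6, an accessory complex I subunit, rose, at 179 and 223 under Cisplatin and 87.7 and 133 under vehicle (0.71 ± 0.21). The cell division markers summed to 141 and 159 under Cisplatin against 2297 and 2435 under vehicle. The thymocyte markers summed to 212 and 301 under Cisplatin against 3594 and 3655 under vehicle and the white adipocyte markers to 275 and 297 against 17.8 and 35.3; their part was not tested.

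Outside these 8 pairs, members were called in numbers of 20 or more in several others. Falls were made by 35 members under sucrose in Liver (7.56% of all genes fell), 34 in Kidney (8.93%) and 28 in AdrenalG (7.59%). These were against untreated mice, whose libraries were deeper. APAP in Stomach had 29 falls (5.34%), but 7 with sucrose alone as the reference (1.88%). Olanzapine had 31 falls in Kidney (3.28%), 30 in Brain (3.83%) and 27 in heart (1.35%). Repatha had 31 falls in SkMuscle (1.74%) and 28 in AdrenalG (3.77%), and Teriparatide 21 in AdrenalG (4.39%). Sofosbuvir had 24 falls in Skin (3.96%), but 7 with sucrose alone as the reference (1.86%). Rises were made by 35 members under Lurasidone in Skin (7.77% of all genes rose) and 30 in Brain (3.31%). Asenapine had 28 rises in Stomach (3.03%), 24 in Brain (6.75%) and 22 in Eye (2.6%), and Dox had 21 in ParotidG (1.53%).

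**Figure D5:**
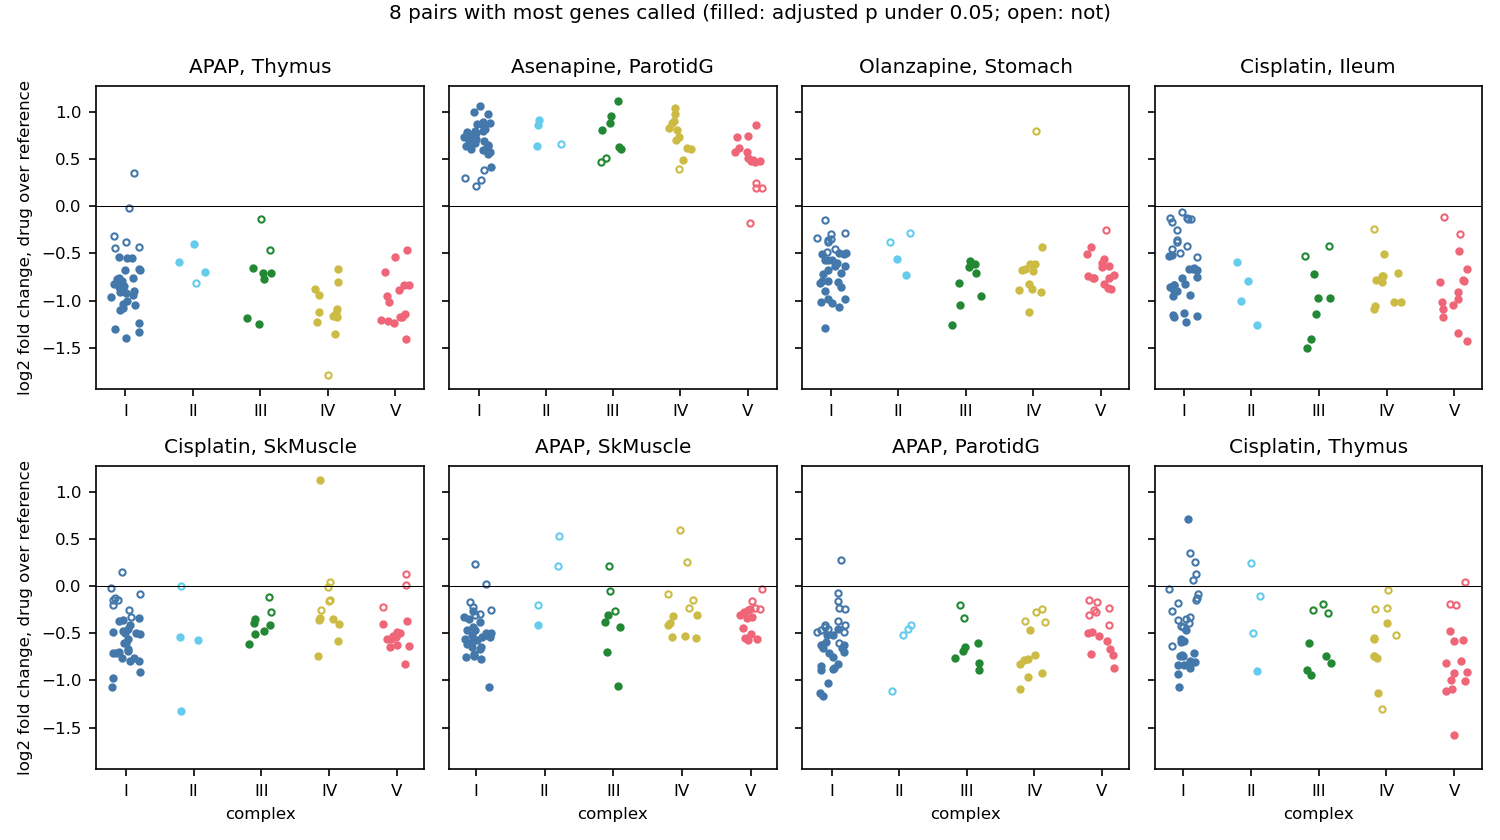
Log2 fold change, drug over reference, of each tested member in the 8 pairs with the most calls, by complex, filled at an adjusted p under 0.05 and open otherwise. The medians run from -0.85 for APAP in Thymus to 0.65 for Asenapine in ParotidG; the 4 members outside the complexes are not drawn.

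Further pairs were taken for their tissue, as rich in mitochondria or a known target of the drug, whatever their counts. Under Cisplatin in Kidney 24 of 77 members fell and 5 rose, where 11.6% of all genes fell and 11.3% rose, and 44 fell against the mean of the other set C groups. Ndufs1, the largest iron-sulphur subunit of complex I, was at 141 and 170 under Cisplatin and 277 and 290 under vehicle (-0.96 ± 0.13), while Ndufb3 rose by 0.77 ± 0.14. Under Cisplatin in heart 4 of 77 rose and 0 fell (3.97% and 3.5% of all genes), a share close to that of all genes. The count was 1 with set C alone in the fit, 2 without the filter and 18 with the mean of the other set C groups as the reference. The 4 were Ndufv1, the flavin subunit of complex I (0.38 ± 0.11), Ndufa3, Ndufb9 and Atp5b, the catalytic beta subunit of complex V (0.27 ± 0.09). Under APAP in Liver 18 of 74 fell and 1 rose (8.78% and 7.7%), but with sucrose alone 0 fell and 1 rose (3.94% and 3.54% of all genes). Under APAP in Kidney 33 of 77 fell and 0 rose (8.02% and 5.94%), but 3 fell with sucrose alone, a share close to the 3.22% of all genes. Dox in Liver had 1 rise and 0 falls (0.497% and 0.0728%), which was Cox7c at 0.96 ± 0.16 (adjusted p = 0.00162); 2 rose without the filter, 3 by DESeq2 and 7 against the mean of the other set C groups. Dox gave no call by edgeR in heart (0.113% of all genes rose and 0.0339% fell) or SkMuscle (0.117% and 0.0466%), with 12 and 5 members at an unadjusted p under 0.05, and DESeq2 called 4 in heart. Against the mean of the other set C groups, 2 were called in heart and 6 in SkMuscle. EMPA gave no call by edgeR in Kidney (0% and 0.0492%), heart (0.0903% and 0.0677%) or Liver (0.0121% and 0%), with 11, 5 and 4 members at an unadjusted p under 0.05. Apart from the APAP counts against sucrose alone, no share of all genes is given here for counts at an unadjusted p, by DESeq2 or with another reference. Those other counts can therefore not be set against a background.

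Cox6b2 stood apart from the other members in Kidney under Cisplatin. Cox6b2, the testis isoform, was at 83.5 and 79.2 CPM (83 and 62 counts) in Kidney under Cisplatin, against 5.54 and 2.32 (5 and 2 counts) under vehicle. Its log2 fold change was 4.24 ± 0.53 (adjusted p = 3.67e-08). The other 34 kidney libraries lay between 0 and 11.2 with a median of 4.43, so the groups did not overlap. Of 90 drug and tissue pairs in which Cox6b2 was tested, 6 of them under Cisplatin, this was the 1 called. In Kidney Cox6b2 passed the filter on low counts only through the Cisplatin libraries. Its test and this count of calls are therefore no independent support for the rise. In heart, where Cox6b2 did not pass the filter and was not tested, it was at 6.68 and 11.9 under Cisplatin and at 0 and 1.33 under vehicle, also without overlap. In SkMuscle, where Cox6b2 was not tested either, it was at 2.51 and 0 under Cisplatin and at 0 under vehicle, with overlap. The heart and SkMuscle values are low. The other testis isoforms were near 0 in the 2 Cisplatin kidney libraries, with 0 and 1.28 for Cox7b2 and 0 and 5.11 for Cox8c. The male germ cell markers summed to 2.01 and 56.2 there and to between 0 and 78.3 in the other kidney libraries. Cox6b1, the widespread isoform, was at 484 and 588 under Cisplatin and 530 and 582 under vehicle. The promoter window of Cox6b2 printed above holds none of the 3 motifs, and no more than that can be read from it.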

How the data were processed

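RNA of 868 libraries was made into 3′ mRNA libraries, per the labels' protocols, and the authors deposited raw read counts per gene in 1 table for each tissue. The submitters' processing notes name bcl2fastq 2.17, TopHat2 2.1.1, HTSeq 0.9.1 and mm10. Their settings, including strand, are not given in the sources used here. Libraries were grouped by the tissue, treatment and replicate of the labels. CPM values are counts scaled by column sums. Tests used edgeR 4.0.16 in R 4.3.3: TMM scaling, a filterByExpr filter (minimum count 10), quasi-likelihood F tests, and Benjamini-Hochberg adjustment over all genes tested. Each SE was taken as the absolute log2 fold change divided by the square root of F. The untreated fit had 24 tissue means, and each tissue's drug fit had its 18 treatment means. The tests were first run on simulated data with known changes. DESeq2 1.42.0, other scalings, filters, references and left-out libraries were alternatives. Members could be named as the one with the highest mean or the widest range of untreated tissue means in its complex, as tissue-restricted (a highest tissue mean of at least 5 CPM and 10 times the median tissue), as members of isoform pairs, as up to 4 called members in each direction with the largest fold changes and up to 3 not called in a contrast, or as up to 4 genes of a pathway or marker list. The members and lists were chosen with earlier results of these data known, and the cell division, thymocyte, parietal, parotid acinar and Fabp6 markers after seeing these values. Over 442 pairs of libraries of a group, none had identical counts. The chi-square per gene had a lowest value of 1.12, a median of 2.41 and a highest value of 294, so some pairs differed strongly. Precision rests on 2 libraries a group.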

Additional observations from a re-analysis of the deposited data

Results flagged for a closer look

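Changes under the same drug differed between tissues in 2 pairs that were picked after their values were seen. For APAP, the change in Thymus minus the change in Ileum was tested in 1 joint fit of both tissues. In it, 59 of 74 members were lower and 0 higher in that difference, where 9.14% of all genes were lower and 7.29% higher. The median log2 difference was -0.91, against 0.03 over all genes. In Ileum itself 9 members rose and 2 fell under APAP (9.24% and 6.75% of all genes).

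For Cisplatin, the change in SkMuscle minus the change in BM was tested in the same way. Here 45 of 77 members were lower and 2 higher in that difference, where 7.77% of all genes were lower and 10.2% higher. The median log2 difference was -0.76, against -0.01 over all genes. In BM itself 10 members rose and 1 fell under Cisplatin (7.72% and 10.9% of all genes). No library stood apart in the 2 groups of 4 libraries.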

How the results depend on the processing

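TMM scaling moved 22 of 24 tissue sums by more than the spread between the 2 libraries: heart 129149, SkMuscle 71195, Aorta 63830, Kidney 51207, Liver 43500, Stomach 30851, Pancreas 29965, ParotidG 27488, WAT 24573, Colon 24470, ThyroidG 19937, Ileum 19127, Brain 17060, AdrenalG 16485, Thymus 15126, Testis 13893, Skin 13858, Eye 12649, Lung 11243, PituitaryG 10565, Skull 9958 and Spleen 9266. With column sums in the tests, members lower numbered 7 in AdrenalG, 8 in Ileum, 6 in Jejunum and 0 in ThyroidG, and members higher 0 in Pancreas and 0 in ParotidG, all with the majority turned. In these tissues the median of all genes moved too, and the members' median stayed on the same side of it. Column sums also gave 74 lower in Brain, 54 higher in Colon, 40 higher in WAT, 37 lower in Thymus, 31 lower for APAP in SkMuscle, 71 lower for APAP in ParotidG, and 75 falls for Sofosbuvir.

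With the other reference (sucrose alone in set A, the mean of the other groups in set C) falls numbered 25 for APAP in ParotidG, 44 for Cisplatin in Kidney, 3 for APAP in Kidney, 0 for APAP in Liver (1 rise, and Atp5d at 0.11 in place of -0.61), 149 for APAP, 347 for Cisplatin and 26 for Sofosbuvir. Rises numbered 18 for Cisplatin in heart, 7 for Dox in Liver and 388 over sets A and C, and calls 2 for Dox in heart and 6 in SkMuscle. The cause of these moves was not tested. Without the filter, rises numbered 2 for Cisplatin in heart and 2 for Dox in Liver. DESeq2 gave 3 rises for Dox in Liver and 4 calls in heart, and a fit of set C alone gave 1 rise for Cisplatin in heart. Leaving out Olanzapine from the reference of Asenapine in ParotidG gave 55 rises, and leaving out Asenapine from that of Olanzapine in Stomach gave 55 falls.

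Leaving out 1 library at a time gave 6 to 42 falls for APAP in ParotidG, 21 to 57 for APAP in SkMuscle, 47 to 64 for APAP in Thymus, 40 to 49 for Cisplatin in Ileum, 38 to 53 in SkMuscle and 28 to 45 in Thymus, 7 to 68 for Olanzapine in Stomach, 28 to 61 rises for Asenapine in ParotidG, and 76 to 77 rises in heart, 73 to 74 in SkMuscle, 53 to 54 falls in Testis and 55 to 59 members higher in heart than in SkMuscle. The main fits did not pair libraries by replicate number. Deviations of same-numbered libraries correlated above 0.1 in 83 of 414 cases (median 0.019) within a tissue and set. Between untreated tissues this held in 38 of 168 cases (median 0.007, from -0.454 to 0.48). Same-numbered libraries of different tissues may come from 1 animal, which is not given in the sources used here. The fits over several tissues took them as independent. With a replicate block, rises numbered 18 for Asenapine in ParotidG, 78 for Asenapine, 343 over all pairs and 2 for Cisplatin in heart, and EMPA in Kidney had 1 call. In set B the block and Asenapine largely coincide, since most Asenapine libraries are numbered 3 and 4 and the others 1 and 2. Of 708 alternatives to 120 values of named members, 686 kept direction and side of the threshold, 18 lost the call, 3 gained it and 1 turned. Many of these members were named for their large called changes, so keeping the call was in part fixed in advance. Among the 708, libraries were left out only for untreated heart, SkMuscle and Testis. They therefore do not cover the left-out libraries that lowered the drug counts above. The planned identity of isoform proteins was not run. Groups of 2 libraries with a median of 877593 counts limit what can be called for members with few counts.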
